A study of Mus musculus with 21 samples.

Results

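The response of mouse embryonic stem cells to 8 h of CX-5461 was read from 6 of the 21 libraries of the series, chosen by the treatment and time in each library's label. 3 libraries came from cells given 1 µM CX-5461 for 8 h and 3 from untreated cells taken at 0 h. Of the 20900 genes in the table, the 14666 with a log2 value above 0 in at least 3 of the 21 libraries were tested. The cells were E14, an established embryonic stem cell line of the 129 strain, kept in serum with leukaemia inhibitory factor (LIF). They were plated a day earlier, and their medium was then exchanged for medium with the compound. The labels name no vehicle control, no control with fresh medium alone and no untreated cells at 8 h. An effect of the compound therefore cannot be told apart from an effect of 8 h in fresh medium or of the solvent. The labels do not say that the 3 replicates of a group were separate cultures, so p-values rest on a spread between libraries that may be technical. That spread was estimated over all 21 libraries, not the 6 alone, and drawn toward a trend shared by genes of like level. The 3 libraries after 4 h of 1 µM CX-5461 and the 3 after 8 h of 1 µM BMH-21, another inhibitor of the same enzyme, served to test where the 8 h state differed.

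CX-5461 is a small molecule that was developed to block RNA polymerase I, the enzyme that transcribes the ribosomal RNA genes in the nucleolus. It is also known to stabilise G-quadruplex DNA and to trap topoisomerase II on DNA. When ribosomal RNA synthesis stops, ribosomal proteins that find no ribosomal RNA bind MDM2, the ubiquitin ligase that keeps p53 low, and p53 accumulates. In embryonic stem cells the nucleolus also holds the Dux locus silent, and loss of that repression is known to switch on genes of the 2-cell embryo.

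The deposited values were log2 of reads relative to an effective library size. The 6 libraries held 46604397 to 55844540 reads, and a log2 value of 0 corresponded to 43 to 52 reads. The library median was 4.34 to 4.50 in the untreated libraries, lowest in replicate 3, and 4.62 to 4.71 after 8 h of CX-5461. The whole treated group was thus shifted upward, by 0.22 on the log2 scale. Every comparison was therefore made on the values as deposited and again after each library was centred on its own median. Whether that shift was a property of the cells or of the scaling cannot be told apart from these values. Of the 14666 genes, 35.1% were called higher and 14.3% lower as deposited, against 29.3% and 44.7% after centring, by limma with Benjamini-Hochberg adjustment at 0.05. Below, a gene "rose" or "fell" only where it was called in the same direction on both scales. By that rule 4301 genes rose, which is 29.3%, and 2089 fell, which is 14.2%. Each count of list members below stands against these shares. They differ with level, and the lists were not matched for it. Among the 3667 genes with the highest mean level 8.97% rose and 28.8% fell. No gene was called in opposite directions on the 2 scales, and 2960 were called on neither. The groups' values also did not overlap on either scale for 28.5% (rises) and 13.8% (falls) of the genes tested. In these bulk libraries, a change in the share of cells of a type and a change in RNA per cell cannot be told apart.

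Changes of at least 2-fold were more often rises than falls. The median difference of the 4301 genes that rose was 0.91 as deposited and 0.70 after centring, and that of the 2089 that fell was -0.41 and -0.62. At least 2-fold changes on both scales were made by 1521 rises and 74 falls, at least 4-fold changes by 598 and 3, and at least 8-fold changes by 223 and 0. Of 1010 tested genes whose 3 untreated values all lay at or below 0, 858 rose and 571 had all 3 treated values above 0. These genes passed the filter only through treated libraries, at any of the times, so the filter itself favours rises among them. That holds as well for such members of the gene lists below, for example Krt5, Fas, Fosl1, Tmem92 and Dux. Among the other 13656 genes 25.2% rose and 15.3% fell. There the median rise was 0.76 as deposited and 0.54 after centring, and the median fall -0.41 and -0.62, so which was larger depends on the scaling. At least 2-fold on both scales were 807 of these rises and 74 of the falls.

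**Figure D1:**
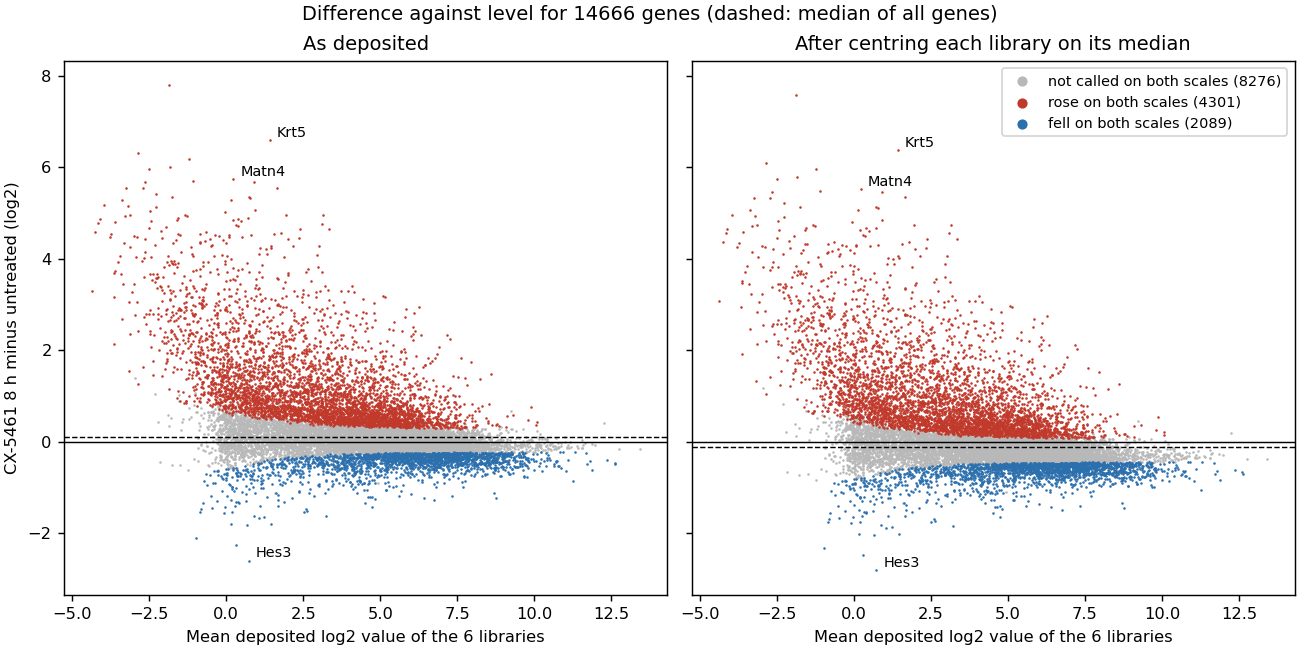
Difference between CX-5461 8 h and untreated (log2, y axis) against the mean deposited log2 value of the 6 libraries (x axis) for 14666 genes, as deposited and after centring, with the median of all genes as a dashed line. Red points rose on both scales (4301), blue points fell (2089), and the widest rises, such as Krt5 and Matn4, lie among genes of low mean level.

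The cells kept the transcripts that define embryonic stem cells at a lower summed level. The 8 markers Pou5f1, Sox2, Nanog, Zfp42, Esrrb, Dppa5a, Tdgf1 and Sall4 were summed as RPM. RPM are reads scaled to a common total of all reads in each library. They do not use the effective library size, so the marker sums are neither on the deposited nor on the centred scale. The sum was 5666 to 5717 RPM in the untreated libraries and 5194 to 5261 after 8 h of CX-5461. Of the 8 markers, 5 fell and 1 rose. The falls of Nanog and Sall4 were small and lost their calls after quantile normalization, and that of Sall4 (-0.31) also without treated replicate 2 (-0.26) or untreated replicate 2 (-0.26). The summed levels of 4 marker lists of other lineages were low, and higher in every treated than in every untreated library. The summed level of 8 trophectoderm markers was 75.5 to 79.0 RPM against 120 to 140, with 5 of the 6 tested members risen, among them Cdx2 (1.26) and Hand1 (1.25) as deposited log2 differences. After quantile normalization the difference of Cdx2 was 0.56 and not called (limma adjusted p = 0.0646). For 8 fibroblast markers the sums were 30.4 to 32.0 against 44.3 to 47.0, with 2 of 4 tested members risen, while Lum and Postn stayed at or under 10 reads in every library. For 10 primitive endoderm markers they were 18.4 to 19.5 against 23.7 to 26.2 with 3 of 7 risen and Ttr at or under 10 reads throughout, and for 7 mesoderm markers 6.23 to 6.76 against 7.94 to 8.86 with 1 of 5 risen. Over the tested members, the median differences of primitive endoderm and mesoderm markers were 0.39 and 0.47 as deposited and -0.18 and -0.20 after quantile normalization, so their sign depends on the scaling. The fibroblast marker Dcn, below the filter, had 11 to 14 untreated and 3 to 6 treated reads. The part of these other lineages in the results was not tested.

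The 3 largest rises with a mean of at least 0 were Krt5, Matn4 and Dusp13, which untreated cells barely expressed. Krt5, the keratin of basal epithelial cells (chr15:101707070-101712898, minus strand), had log2 values of -2.16, -2.11 and -1.36 in the untreated libraries and 4.60, 4.74 and 4.80 after treatment. All 3 treated values lay far above all 3 untreated ones, with 1195 to 1386 reads against 10 to 18. The difference was 6.59 ± 0.14 (SE; limma adjusted p = 2.5e-78) and 6.37 after centring. Matn4, which encodes a matrilin of the extracellular matrix (chr2:164389393-164405160, minus strand), had untreated values of -1.80, -3.05 and -3.11 and treated values of 3.00, 3.07 and 3.18. Its untreated values rested on only 5 to 13 reads and spread widely, but none came near the treated ones. Its difference was 5.74 ± 0.22 (limma adjusted p = 4.4e-50), or 5.52 after centring. Dusp13, a dual-specificity phosphatase known from muscle and testis (chr14:21733394-21751181, minus strand), went from -1.69, -2.60 and -1.52 to 3.77, 3.68 and 3.77, a difference of 5.68 ± 0.16 (limma adjusted p = 1.7e-64).

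The RefSeq promoters of these 3 genes (GRCm38.p6, all on the minus strand, 250 bases before to 50 after the start in RefSeq) are given below because their transcripts rose most from a near-silent state. Both strands were searched for the TATA box (TATAAA), the AP-1 site (TGANTCA), the cyclic AMP response element (CRE, TGACGTCA), the CCAAT box (CCAAT), the E-box (CACGTG) and, by its name, the p53 half-site pair. Matches are in capitals and their positions are those of the first base relative to that start. For Dusp13 the RefSeq start lies inside the GENCODE span given above, so its positions do not refer to the end of that span.
Krt5, chr15:101712856-101713155: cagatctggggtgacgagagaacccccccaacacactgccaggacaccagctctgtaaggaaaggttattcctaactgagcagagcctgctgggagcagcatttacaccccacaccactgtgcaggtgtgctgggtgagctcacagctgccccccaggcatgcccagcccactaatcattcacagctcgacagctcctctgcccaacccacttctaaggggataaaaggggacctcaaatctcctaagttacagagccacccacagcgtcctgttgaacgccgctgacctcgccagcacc
Matn4, chr2:164405111-164405410: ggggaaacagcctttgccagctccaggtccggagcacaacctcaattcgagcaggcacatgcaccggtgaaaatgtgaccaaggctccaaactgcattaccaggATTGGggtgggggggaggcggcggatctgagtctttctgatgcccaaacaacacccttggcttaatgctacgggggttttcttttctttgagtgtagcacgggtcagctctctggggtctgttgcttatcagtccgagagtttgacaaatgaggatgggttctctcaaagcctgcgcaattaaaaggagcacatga
Dusp13, chr14:21748573-21748872: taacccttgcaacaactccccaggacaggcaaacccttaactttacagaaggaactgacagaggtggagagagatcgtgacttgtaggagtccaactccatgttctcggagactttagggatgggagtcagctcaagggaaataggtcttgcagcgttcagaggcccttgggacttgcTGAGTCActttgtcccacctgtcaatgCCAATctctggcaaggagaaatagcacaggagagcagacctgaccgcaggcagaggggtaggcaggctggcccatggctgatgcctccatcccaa
The Krt5 window held none of the 6 motifs. The Matn4 window held a CCAAT box at -146 from the start, on the opposite strand. The Dusp13 window held an AP-1 match at -72 and a CCAAT box at -45, which do not overlap. Of 32851 promoters in the RefSeq table, 37.4% held a CCAAT box, 7.81% an AP-1 match, 13.6% a TATA box, 7.15% an E-box, 1.79% a CRE and 0.0731% the p53 half-site pair. The 3 windows held 6, 9 and 4 CpG dinucleotides. A match is a string of letters here, and nothing about binding was measured.

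The other 9 of the 12 largest rises with a mean of at least 0 came from varied tissues. Krt15, a keratin of stratified epithelium, rose by 5.56 from -1.13 ± 0.78 to 4.42 ± 0.02 (mean ± SD, n = 3). Sbsn, which encodes suprabasin of the epidermis, rose by 4.96. Siglec1, a sialic acid-binding receptor of macrophages (chr2:131069220-131086765), rose by 5.33, and Mpp4, a scaffold protein of photoreceptors, by 5.34. Ckm, the muscle creatine kinase, rose by 5.29 from only 2 to 19 reads, and the axon guidance gene Slit1 by 5.07. The others were 5330417C22Rik (chr3:108455694-108536536, 4.95), the organic anion transporter gene Slco2b1 (4.90) and the ATP-gated channel gene P2rx6 (4.88). For all 12 the treated and untreated values did not overlap, as the rule for choosing them required, and all 12 were also called lower after CX-5461 than after 8 h of BMH-21. Krt5, for example, differed by -2.48 from its BMH-21 level (limma adjusted p = 4.3e-34). For BMH-21 8 h the background was 40.6% of the 14666 genes called higher with CX-5461 on both scales and 12% called lower.

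The largest falls were smaller in size. Hes3, a bHLH repressor of the HES family (chr4:152285972-152291662, minus strand), had untreated values of 2.22, 1.91 and 1.97 and treated values of -0.60, -0.40 and -0.71, that is 170 to 218 reads against 26 to 39. All treated values lay below all untreated ones, with a difference of -2.60 ± 0.23 (limma adjusted p = 1.9e-19) and -2.82 after centring. Lrtm2, which encodes a leucine-rich repeat membrane protein (chr6:119315133-119330766, minus strand), went from 1.53, 1.36 and 1.42 to -0.65, -0.82 and -1.01, a difference of -2.26 ± 0.26 (limma adjusted p = 8.6e-14). These 2 and 6330410L21Rik (-1.82), an antisense transcript (chr3:129753758-129763884, plus strand), were the 3 largest falls under that rule. Whether the counting used strand is not given in the sources used here, so reads of the antisense transcript and of its partner may be mixed, and the same holds for Vax2os (-1.65). The homeobox genes Meis2 (-1.80) and Hesx1 (-1.62) and the bHLH genes Neurog3 (-1.66) and Msc (-1.52) also fell. So did the sperm sodium pump gene Atp1a4 (-1.81), the muscle methyltransferase gene Smyd1 (-1.64) and the organic solute transporter gene Slc51a (-1.54).

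**Figure D2:**
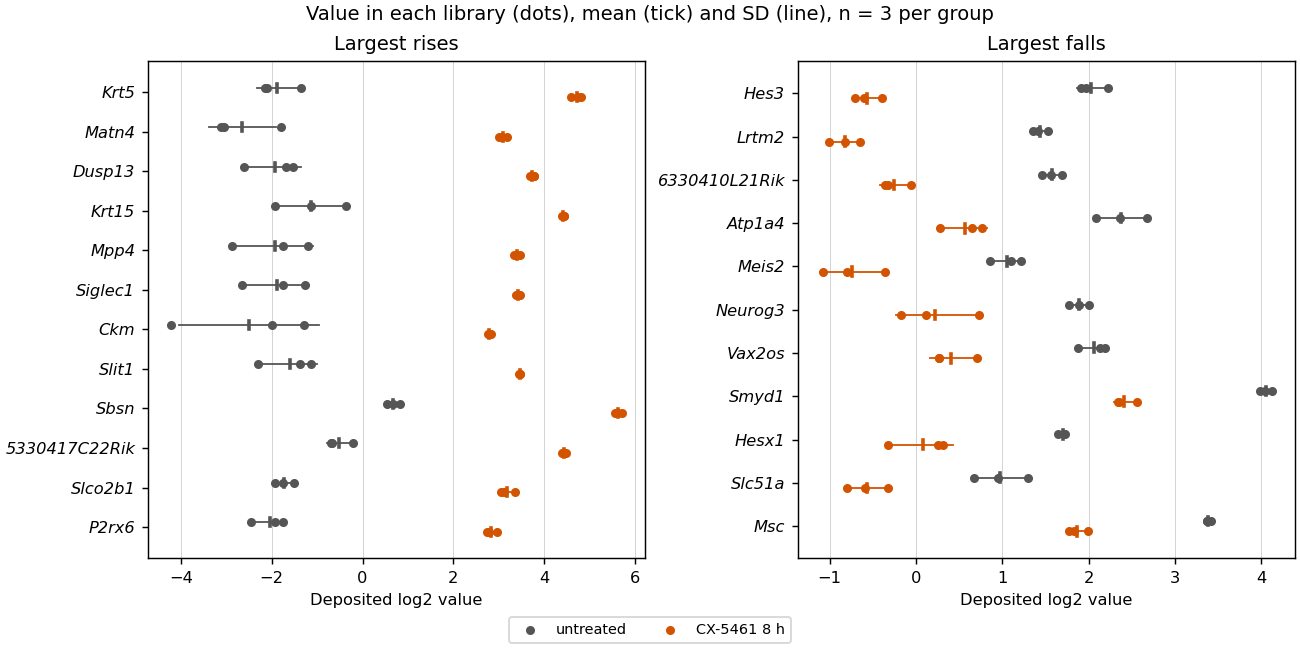
Deposited log2 value (x axis) in each of the 3 untreated (grey) and 3 CX-5461 8 h libraries (orange) for the 12 largest rises and for 11 of the 12 largest falls, with the mean as a tick and the SD as a line. The 2 groups do not overlap for any of these 23 genes, which were chosen by that and by a mean of at least 0. The untreated values of the rises spread more than the treated ones and rest on few reads.

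Part of the genes that serve RNA polymerase I, the target of CX-5461, fell. Of 16 tested genes of the RNA polymerase I machinery, 8 fell and 0 rose, beside backgrounds of 14.2% and 29.3%. The median difference of the list was -0.22 as deposited and -0.44 after centring, where the medians of all genes tested were 0.11 and -0.11. Ubtf, the factor that keeps ribosomal DNA open, had untreated values of 8.85, 8.86 and 8.79 and treated values of 8.42, 8.32 and 8.41. The groups were apart by -0.45 ± 0.10 (limma adjusted p = 9.6e-05). The polymerase I subunit genes Twistnb (-0.47) and Polr1b (-0.36) and the gene Taf1d, of the promoter selectivity complex (-0.48), fell as well. The precursor of ribosomal RNA itself has a row in the table, Rn45s, which was chosen after its values were seen. Its untreated values were 12.21, 12.58 and 11.35 and its treated values 12.62, 13.23 and 11.49, which overlap and spread by over 1 log2 unit within each group. Rn45s was not called on both scales (0.40, limma adjusted p = 0.048, as deposited and 0.19, limma adjusted p = 0.64, after centring), and poly(A) libraries capture ribosomal RNA only in part.

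Ribosome assembly factors and nucleolar proteins fell more broadly. Of 46 tested members 34 fell and 0 rose, and the median was -0.33 as deposited and -0.54 after centring. Ncl, the gene of nucleolin, went from 11.97, 12.01 and 12.02 to 11.61, 11.61 and 11.52. All 3 treated values lay below all 3 untreated ones, with a difference of -0.42 ± 0.10 (limma adjusted p = 9.2e-05), which was -0.16 and no longer called after quantile normalization. Npm1, which encodes nucleophosmin, differed by -0.50 ± 0.10 (limma adjusted p = 3.3e-06). The largest falls of the list were Noc2l (-0.65) and Pno1 (-0.61), factors of the large and the small subunit, Dkc1 (-0.59), the pseudouridine synthase of box H/ACA particles, and Tcof1 (-0.59), the Treacle gene. All were small, below 2-fold. Of the 46 members, 34 were called higher after CX-5461 than after BMH-21 at 8 h and 0 lower. Over all genes those shares were 40.6% and 12%.

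Host genes of small nucleolar RNAs, mostly long noncoding RNAs whose introns carry these RNAs, fell in 10 of 13 cases. The median was -0.46 as deposited and -0.67 after centring. Snhg5 went from 6.93 ± 0.21 to 6.21 ± 0.11 (mean ± SD, n = 3), a difference of -0.72 (limma adjusted p = 1.7e-08), and Gas5 differed by -0.44. The exception that rose was Snhg11 (0.77, limma adjusted p = 4.2e-09), which GENCODE M21 lists as protein-coding. All 13 tested hosts were higher after CX-5461 than after BMH-21 at 8 h, against 40.6% of all genes. The genes of the cytosolic ribosomal proteins themselves gave another picture. Of 77 tested, 0 rose and 1 fell (Rpl13a, -0.23). The call of Rpl13a was lost without any of the 3 treated libraries or without untreated replicate 1 or 2, with differences of -0.26 to -0.16. Their median was -0.08 as deposited, -0.30 after centring and 0.13 after quantile normalization, so its direction depends on the scaling. Many ribosomal protein genes have near-identical pseudogene copies that can take their reads. Rpl26 and Rpl30 lay below the filter, with 0 to 3 and 21 to 33 reads in the untreated libraries.

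Targets of p53 rose in both number and size. Of 35 tested target genes 30 rose and 0 fell, against 29.3% and 14.2% of all genes. The list median was 1.47 as deposited and 1.26 after centring. The death receptor gene Fas rose most (chr19:34290666-34327772), from -2.64, -1.38 and -2.48 to 2.09, 2.28 and 2.15. Its untreated reads were 7 to 17 and its difference 4.34 ± 0.16 (limma adjusted p = 9.8e-51). The feedback ubiquitin ligase gene Mdm2 went from 7.15, 7.14 and 6.93 to 8.85, 8.79 and 8.83, so the groups lie over 1 log2 unit apart. Its difference was 1.75 ± 0.10. Perp, a desmosome-associated gene of p53-dependent apoptosis, rose by 2.73, Ddit4, an inhibitor of mTORC1, by 2.96, Dcxr, a carbonyl reductase gene, by 2.51, and the cell cycle inhibitor gene Cdkn1a by 1.87. The 5 tested members that were not called on both scales were Sesn1, Bax, Ddb2, Xpc and Tigar, and Trp53cor1 lay below the filter with 14 to 21 untreated and 32 to 56 treated reads.

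Of the 35 targets, 13 were called lower at 8 h than at 4 h of CX-5461 and 2 higher, where over all genes 25.8% were higher at 8 h and 4.85% lower. The 8 h minus 4 h difference was -0.68 for Mdm2 and -0.87 for Fas (limma adjusted p = 1.2e-08 and 3e-06), and 0.72 for Perp (limma adjusted p = 1.1e-08). Against BMH-21 at 8 h, 17 targets were lower with CX-5461 and 2 higher, where over all genes 12% were lower and 40.6% higher. Among 12 tested regulators of p53, 4 rose and 3 fell. Trp73, the p53 relative, rose by 2.29 (limma adjusted p = 2.2e-40), and the inhibitors of p53 Mdm4 (0.78) and Ppm1d (0.73) rose less. The transcript of p53 itself was lower. Trp53 went from 9.70, 9.73 and 9.54 to 9.03, 8.95 and 8.95, a difference of -0.68 ± 0.10 (limma adjusted p = 4.1e-09). The checkpoint kinase gene Chek1 also fell (-0.72).

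Genes of the 2-cell embryo rose, most of them after 4 h. Of 24 tested members 23 rose and 0 fell, with a median of 1.50 as deposited and 1.29 after centring. Members with all untreated values at or below 0, such as Tmem92, Tdpoz3 and Dux, passed the filter only through treated libraries. The filter favours rises among these members. At 4 h of CX-5461 the list's median difference from the same controls had been -0.04 as deposited and 0.12 after centring. Of the members, 21 were called higher at 8 h than at 4 h, against 25.8% of all genes. Tmem92 (chr11:94777217-94782703), a transmembrane protein gene of the 2-cell program, had -0.48, -0.67 and -0.68 in untreated and 2.58, 2.56 and 3.09 in treated libraries. Its difference from untreated was 3.36 ± 0.21 (limma adjusted p = 1.3e-30) and its difference from 4 h 2.81 (limma adjusted p = 1.8e-23). Zscan4a, of the Zscan4 zinc finger family, is listed by GENCODE M21 as an unprocessed pseudogene. It had 1.74, 1.69 and 1.71 in untreated and 2.85, 3.13 and 3.10 in treated libraries. Its 8 h level stood 1.34 above its 4 h level. Tdpoz3 rose by 2.40 from 7 to 13 reads, but by 0.29 and without a call when values below 0 were set to 0. Dux, the factor that opens this program, had 3 to 11 untreated and 91 to 106 treated reads and rose. At 8 h its difference from untreated was 3.79, and at 4 h already 3.55. The Zscan4, Usp17l, Tdpoz and Dux genes lie in families of near-identical copies, so the split of reads between members is uncertain. Tdpoz4 was not called, and Zfp352, Tdpoz1 and Spz1 lay below the filter. Spz1 had 3 to 6 untreated and 19 to 30 treated reads, and Zfp352 had 11 to 17 and 26 to 48. Against BMH-21 at 8 h, 8 members were lower with CX-5461 and 0 higher, where over all genes 12% were lower and 40.6% higher.

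**Figure D3:**
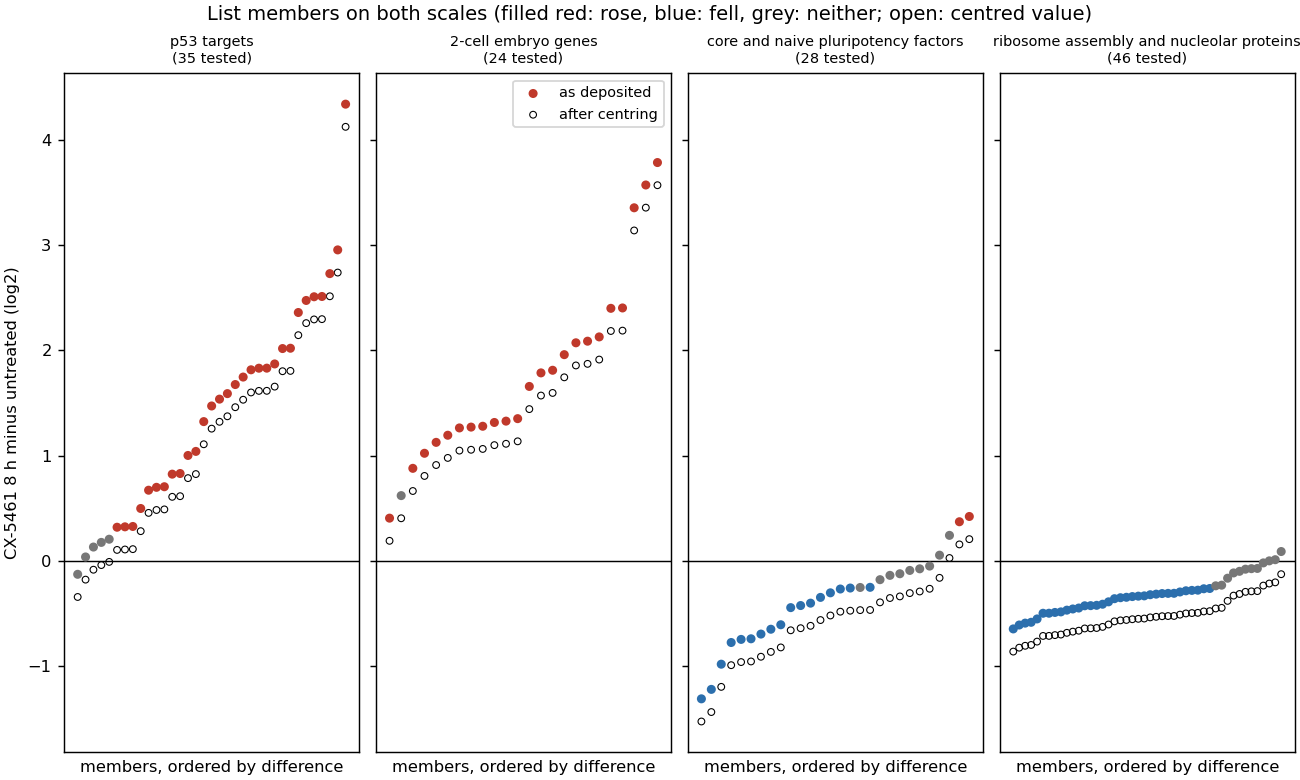
Difference between CX-5461 8 h and untreated (log2, y axis) for each tested member of 4 gene lists, ordered by size, with filled points as deposited and open points after centring. Red marks members that rose on both scales (30 of 35 p53 targets, 23 of 24 genes of the 2-cell embryo), blue members that fell (17 of 28 pluripotency factors, 34 of 46 ribosome assembly genes), and grey members called in neither direction on both scales.

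Most pluripotency factors fell relative to untreated cells, and most were above their 4 h level. Of 28 tested factors 17 fell and 2 rose, and the median was -0.29 as deposited and -0.50 after centring. At 4 h the median difference from the same controls was -0.90 as deposited and -0.74 after centring, so the step from 4 to 8 h was smaller after centring. Of the factors, 18 were called higher at 8 h than at 4 h and 1 lower, against 25.8% and 4.85% of all genes. Zfp42, the naive state marker also called Rex1, had untreated values of 10.12, 10.10 and 9.86 and treated values of 9.38, 9.23 and 9.24. It lay -0.74 ± 0.10 from untreated (limma adjusted p = 4.3e-10) and 1.12 from its 4 h level (limma adjusted p = 7.3e-18). Nanog went from 9.06, 9.08 and 8.86 to 8.80, 8.66 and 8.76, a small difference of -0.26 ± 0.10 (limma adjusted p = 0.028) that was -0.02 after quantile normalization. The call of Nanog was lost without untreated replicate 1 or 2, or treated replicate 2 or 3, with differences of -0.27 to -0.22. Nanog stood 0.97 above its 4 h level. Esrrb, an orphan nuclear receptor of the naive network, fell (-0.75) and was 0.66 above 4 h. After centring, the differences from 4 h were 0.75 for Zfp42, 0.60 for Nanog and 0.29 for Esrrb. The largest falls of the list were Spic (-1.31), Nr0b1 (-1.22), Tcl1 (-0.98) and Tfcp2l1 (-0.78). The LIF feedback inhibitor gene Socs3 (0.42) and the Nodal co-receptor gene Tdgf1 (0.37) rose. Against BMH-21 at 8 h, 22 of the 28 factors were higher with CX-5461 and 0 lower, where over all genes 40.6% were higher and 12% lower.

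Factors of the formative and primed states fell in 9 of 20 cases and rose in 2, with a median of -0.26 as deposited and -0.48 after centring. Lin28a, which blocks let-7 processing, went from 9.44, 9.43 and 9.26 to 8.21, 8.10 and 8.14. The difference was -1.23 ± 0.10 (limma adjusted p = 7.6e-21). The de novo DNA methyltransferase gene Dnmt3b (-1.13) and the transcription factor genes Sox11 (-0.93), Zic5 (-0.72) and Foxd3 (-0.59) fell. Sox4 (0.52) and Pou3f1 (0.46) rose. Of 19 tested neural factors, 8 rose and 3 fell, among the latter Hes3 and Pax6 (-0.46). The call of Pax6 was lost without treated replicate 1 or untreated replicate 1 or 2, with differences of -0.43 to -0.37. Neurod1 (1.48), Hes6 (1.14) and the Notch ligand gene Dll1 (1.08) rose. 10 further neural factors lay below the filter, among them Hes5, Pax3, Neurog2, Olig2, Zic1, Lhx2, Six3 and Rax.

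**Figure D4:**
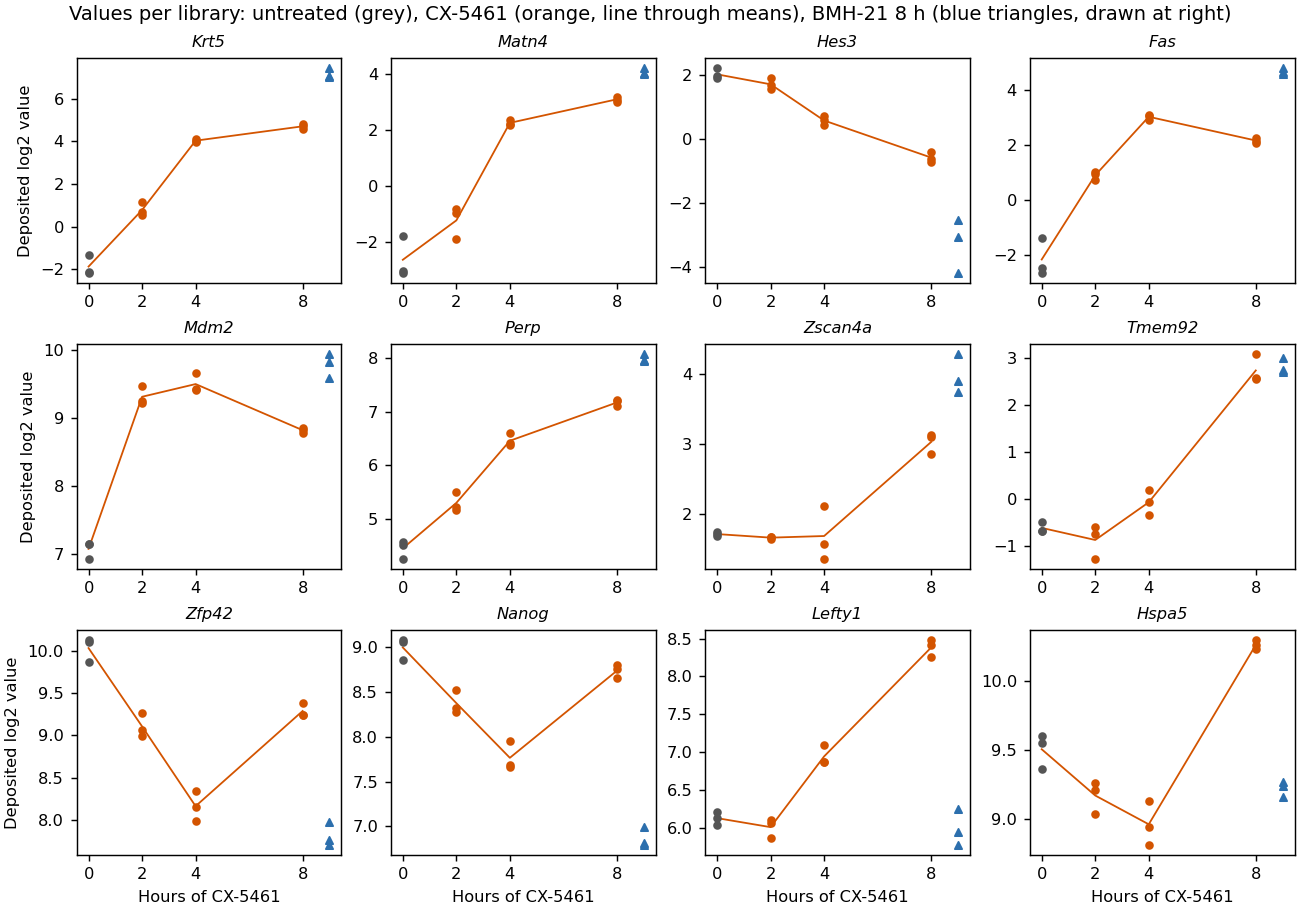
Deposited log2 values (y axis) of 12 genes in each library, untreated at 0 h (grey) and after 2, 4 and 8 h of CX-5461 (orange, line through the means), with BMH-21 at 8 h as blue triangles set at the right of the axis. Zfp42 and Nanog are lowest at 4 h and higher at 8 h, Tmem92, Zscan4a, Lefty1 and Hspa5 are highest at 8 h among the CX-5461 times, and Fas and Mdm2 are lower at 8 h than at 4 h.

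Keratins and genes of epithelial junctions rose in 24 of 34 tested cases and fell in 2. Members with all untreated values at or below 0, such as Krt5, passed the filter only through treated libraries, which favours rises. Krt20, Krt23, Krt80, Krt4 and Krt1 lay below the filter and are not in these counts. The median was 0.97 as deposited and 0.76 after centring, and 17 members were called higher at 8 h than at 4 h and 3 lower, against 25.8% and 4.85% of all genes. Besides Krt5 and Krt15, the simple epithelial keratin gene Krt7 went from 1.14, 0.98 and 0.85 to 4.53, 4.47 and 4.48. Its difference was 3.50 ± 0.12 (limma adjusted p = 6.1e-54), and it stood 0.94 above 4 h. Krt8, which untreated stem cells already expressed, rose by 0.67. Epcam (-0.45) and Krt42 (-0.39) fell. Krt4, below the filter, had 7 to 8 untreated and 33 to 39 treated reads. The trophectoderm marker sum was higher beside these keratins, at least 120 against at most 79.0 RPM, and its part in them was not tested. Of 31 extracellular matrix genes 12 rose and 4 fell, that is 38.7% and 12.9%, near the 29.3% and 14.2% of all genes tested. Next to Matn4, the cartilage matrilin gene Matn1 rose by 4.66 from 1.02 ± 0.09 to 5.67 ± 0.04 (mean ± SD, n = 3), the small proteoglycan gene Bgn by 3.19 and the fibulin gene Fbln2 by 2.82. The basement membrane gene Nid1 (-0.77) and the fibronectin gene Fn1 (-0.75) fell. Fibroblast markers, with sums of at most 32.0 and at least 44.3 RPM, were higher beside them, and their part was not tested.

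AP-1 and other immediate early genes, which respond to signals and stress and encode transcription factors and other proteins, rose in 21 of 26 tested cases. The median was 0.91 as deposited and 0.69 after centring. Between 4 and 8 h of CX-5461, Fosl1 became lower and Fosl2 higher. Fosl1 had untreated values of -2.85, -1.75 and -1.71 and treated values of 1.70, 1.76 and 1.22, a difference of 3.66 ± 0.17 (limma adjusted p = 8.8e-42). Its 8 h minus 4 h difference was -1.53, and that of Fosl2 was 1.93 (limma adjusted p = 1.4e-13 and 1.7e-24). Fosl2 had risen from 1.30, 1.01 and 1.31 to 3.70, 3.78 and 3.94 over untreated cells. Egr3 rose by 3.01, the stress factor gene Atf3 by 2.33 and Fos by 1.65. Myc was the member that fell (-0.40).

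Genes of developmental signalling rose more often than they fell in the BMP, Nodal and WNT list. Of 28 genes of the BMP, Nodal and WNT pathways 16 rose and 3 fell. The list median was 0.48 as deposited and 0.26 after centring, where it had been -0.37 and -0.21 at 4 h. Among ligands, Wnt3 (2.72) and Bmp7 (2.27) rose and Bmp4 fell (-0.83), although Bmp4 stood 1.99 above its 4 h level (limma adjusted p = 2.5e-27). Lefty1, the secreted inhibitor and target of Nodal signals, went from 6.21, 6.14 and 6.04 to 8.48, 8.25 and 8.42. That is 2.25 ± 0.11 above untreated (limma adjusted p = 7.7e-40) and 1.44 above 4 h. Lefty1 was also higher with CX-5461 than with BMH-21 at 8 h, by 2.39 (limma adjusted p = 2.3e-41). The WNT-deacylating feedback enzyme gene Notum fell (-0.70). In the FGF and ERK pathway 5 of 23 rose and 4 fell, shares of 21.7% and 17.4% near those of all genes tested (29.3% and 14.2%). The receptor gene Fgfr4 (2.21) and the response gene Phlda1 (1.95) rose, and the ligand genes Fgf17 (-1.22) and Fgf4 (-0.36) and the ERK-responsive factor gene Etv1 (-0.81) fell.

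Of 22 chaperone and unfolded protein response genes 10 rose and 4 fell. Hspa5, the chaperone BiP of the endoplasmic reticulum, had untreated values of 9.60, 9.55 and 9.36 and treated values of 10.29, 10.26 and 10.23. It was 0.75 ± 0.10 above untreated (limma adjusted p = 8e-11) and 1.30 above 4 h (limma adjusted p = 2.3e-22). Its co-chaperone gene Sdf2l1 was 0.95 above untreated and 1.21 above 4 h. Both stood higher with CX-5461 than with BMH-21 at 8 h, by 1.04 and 1.12. The near-identical heat shock genes Hspa1a (1.40) and Hspa1b (1.20) rose, and the constitutive cytosolic chaperone gene Hspa8 fell (-0.46). Of 26 genes of the ATF4 and amino acid response 11 fell and 4 rose, with a median of -0.22 as deposited and -0.44 after centring. The 4 that rose were Atf5 (0.64), Trib3 (0.51), Cebpb (0.65) and Cars (0.46). The cationic amino acid transporter gene Slc7a3 went from 7.96, 8.04 and 7.77 to 6.80, 6.64 and 6.77, a difference of -1.19 ± 0.11 (limma adjusted p = 3e-19). The glutathione-degrading enzyme gene Chac1 (-1.12), asparagine synthetase Asns (-0.73) and Atf4 itself (-0.52) also fell. Among 18 tested targets and regulators of the aryl hydrocarbon receptor and NRF2 pathways, 9 rose and 0 fell. The receptor target Cyp1b1 rose (1.48) and differed by -3.03 from its level with BMH-21. The NRF2 targets Srxn1 (0.80) and Nqo1 (0.57) rose as well.

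Genes of the cell cycle fell in part. Of 30 G2 and mitosis genes 12 fell and 1 rose, and of 37 DNA replication and E2F target genes 15 fell and 0 rose. The medians were -0.22 and -0.16 as deposited and -0.43 and -0.38 after centring. The mitotic kinase gene Plk1 went from 7.80, 7.79 and 7.66 to 7.12, 7.08 and 7.08, a difference of -0.66 ± 0.11 (limma adjusted p = 6.3e-08). Cyclin B1 (Ccnb1, -0.53) and Aurora kinase A (Aurka, -0.52) also fell. Gtse1, a mitotic regulator that is also a p53 target, rose (0.52). Uhrf1 (-0.46), which guides maintenance of DNA methylation, and the helicase subunit genes Mcm2 (-0.34) and Mcm6 (-0.40) fell. In the list of topoisomerases and double-strand break repair, 4 of 33 rose and 3 fell. Its median was 0.01 as deposited, -0.20 after centring and -0.05 after quantile normalization, so its sign depends on the scaling. Top2b, the topoisomerase II isoform of differentiated cells, rose (0.53, limma adjusted p = 3.7e-05). Top2a, the isoform of dividing cells, differed by -0.22 ± 0.10 as deposited (limma adjusted p = 0.064) and by -0.44 after centring (limma adjusted p = 2e-08). H2afx, whose histone marks broken DNA when phosphorylated, fell (-0.70).

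**Figure D5:**
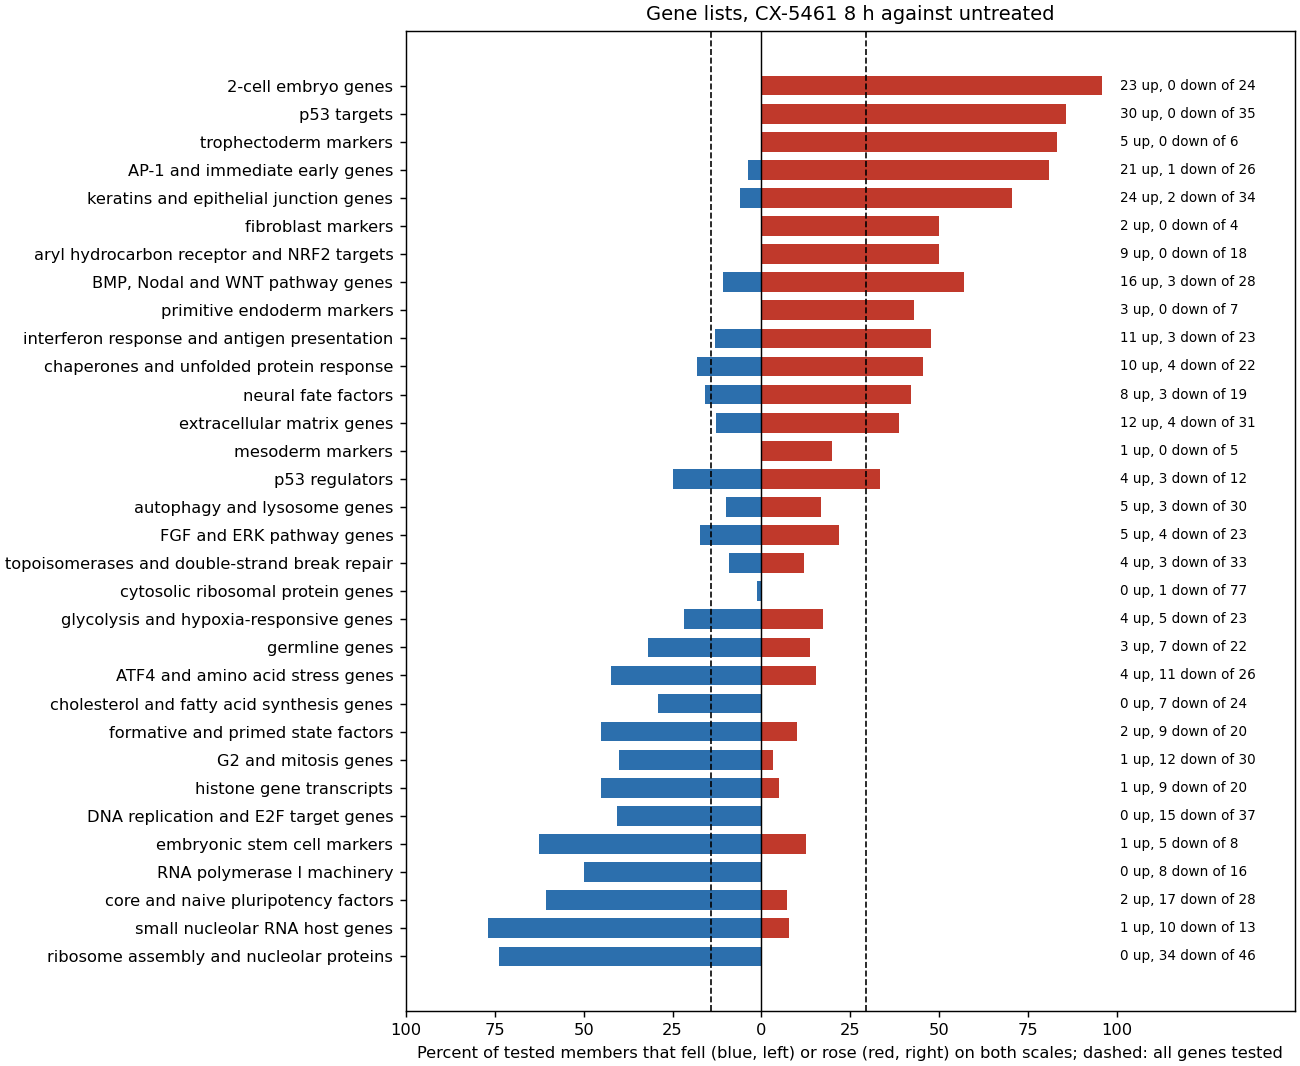
Percent of the tested members of each gene list that fell (blue, drawn to the left) or rose (red, drawn to the right) on both scales after 8 h of CX-5461, with the counts at the right. The dashed lines are the 14.2% and 29.3% of all 14666 genes that fell and rose. Lists are ordered by the share risen minus the share fallen, from 23 of 24 risen (genes of the 2-cell embryo) to 34 of 46 fallen (ribosome assembly). The largest share that fell was 10 of 13 (small nucleolar RNA host genes).

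Features outside the choice of genes were set beside the calls as a description. The share that rose was 49.3% among the 3667 genes with the lowest mean level and 8.97% among the 3667 with the highest, and the share that fell was 5.7% and 28.8%. The genes that passed the filter only through treated libraries lie at low levels, and the filter favours rises among them, so the share at the lowest level is not read further. Depth and the log2 scale also move with level, and their part was not tested. Of 14119 tested genes (96.3%) matched to GENCODE M21, the 3530 with the longest span in the genome rose in 34.3% and fell in 12.1% of cases, against 26.5% and 14.6% for the 3531 shortest. Of 11000 tested genes with a RefSeq promoter (75%), the 544 whose window held the AP-1 letters rose in 37.5% of cases and the 10456 others in 28.9%. Among genes above the median level those shares were 23.7% of 228 and 15.7% of 5461, and among genes below it 47.5% of 316 and 43.2% of 4995. The 1092 genes with an E-box rose in 21.8% and fell in 19.0% of cases, against 30.1% and 13.5% of the 9908 without.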

How the data were processed

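RNA-seq libraries of poly(A) RNA, made with a directional kit after DNase treatment per the labels' protocols, were compared as 3 CX-5461 8 h and 3 untreated libraries. The authors deposited log2 expression values in 1 table, whose name says that they were normalized with voom. The submitters' processing notes name Trim Galore 0.5.0, TopHat2 2.1.1, R 4.0.5, DESeq2 1.30.1, edgeR 3.32.1, limma 3.46.0 and the build mm10, with no order. The counting program and annotation are not given in the sources used here. Read numbers are quoted because each deposited value converts back to whole reads, given the voom offset of 0.5 and the effective library size.

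Groups came from the labels. The log2 values were fitted with limma 3.58.1 in R 4.3.3, with 7 group means over all 21 libraries and an empirical Bayes variance trend, as deposited and after centring each library on its median. Tests were two-sided, with Benjamini-Hochberg adjustment over 14666 genes at 0.05. The fit was tested on simulated data. Replicates of a group differed by more than sampling noise (chi-square per degree of freedom 3.84 to 16.4), so none was merged. The sources used here name no molecular identifiers, so read ranges cover counting error only. After 8 h of CX-5461, 3 reads corresponded to a log2 value of about -3.6 to -3.9 at the depth of 46604397 to 55656959 reads.

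Gene positions are those of GENCODE M21 (GRCm38, the mm10 build), and promoters those of RefSeq GRCm38.p6. Genes named are Krt5, Matn4 and Hes3, the 12 largest rises and falls called on both scales without overlap and with a mean of at least 0, and, for each of 32 gene lists, the up to 4 largest rises and falls called on both scales and the first 3 members tested. Some of these genes are not reported here. Other list members are named only to account for them, and Rn45s was chosen after its values were seen. The comparison, its markers and the lists were chosen with earlier results of these data known. The alternatives were other scalings, filters, a floor, an offset of 5 reads, other variance models, voom weights, the 6 libraries alone, the replicate number as a block and leaving out each library. Figures were drawn with matplotlib 3.10.9 in Python 3.11.15.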

Additional observations from a re-analysis of the deposited data

Results flagged for a closer look

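For 23 genes named in the report, the difference between CX-5461 at 8 h and CX-5461 at 4 h was itself tested with limma and called on both scales. They are shown because they were called, so their number is not a result. Over all genes tested, 25.8% were called higher at 8 h and 4.85% lower. The labels name no untreated cells at 4 or 8 h, so time with the compound cannot be told apart from time in fresh medium. The values are 8 h minus 4 h differences as deposited (log2), and the 2 time points share the untreated controls.

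Of the largest rises, Slit1 was higher at 8 h (1.09), as was 5330417C22Rik (1.06), while P2rx6 was lower (-0.40). Of the largest falls, Hes3 (-1.16), Meis2 (-0.75), Atp1a4 (-0.44) and Smyd1 (-0.32) were lower at 8 h than at 4 h, and Msc was higher (0.90). Among p53 targets, Fas (-0.87) and Mdm2 (-0.68) were lower at 8 h and Perp was higher (0.72). Among genes of the 2-cell embryo, Tmem92 (2.81) and Zscan4a (1.34) were higher. The pluripotency factors Zfp42 (1.12), Nanog (0.97) and Esrrb (0.66) were higher at 8 h, although each was still below its untreated level. The keratin gene Krt7 was higher (0.94). Of the AP-1 genes, Fosl1 was lower (-1.53) and Fosl2 higher (1.93). The signalling genes Bmp4 (1.99) and Lefty1 (1.44) and the chaperone genes Hspa5 (1.30) and Sdf2l1 (1.21) were higher at 8 h. After centring, these 23 differences kept their signs, but those above 0 became smaller and those below 0 larger in size. Perp, for example, was then 0.34, Esrrb 0.29 and Hes3 -1.53. Replicate outliers were not tested, because every group had 3 libraries.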

How the results depend on the processing

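How many genes were called higher and how many lower moved with the scaling. As deposited, 5154 genes were higher and 2091 lower than in untreated cells. Centring gave 4301 and 6550, quantile normalization 4277 and 5821, and median-ratio factors 5158 and 5174. The share of calls that were higher was 71.1%, 39.6%, 42.4% and 49.9%. Against CX-5461 at 4 h, 8626 genes were higher and 712 lower as deposited, 3790 and 4687 after centring, and 4108 and 4073 after quantile normalization. Against BMH-21 at 8 h, 9861 and 1754 became 5954 and 4559, and 6220 and 4530. Raising the filter to a mean log2 above 1 left 12425 genes tested, against 14666. Of these, 1161 had at least 2-fold changes as deposited, against 2035. The genes left out were those of low mean level.

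The replicate numbers did not pair the samples. Deviations of same-numbered untreated and treated libraries from their group means correlated at 0.02, -0.01 and 0.03. With the replicate block 7060 genes were called against 7245 (5068 higher, 1992 lower), and the replicate block with centring gave 6494 lower genes. Leaving out each library of the 2 groups in turn gave 6310 to 6839 calls against untreated, 4405 to 4993 higher and 1460 to 2434 lower, and 4078 to 4134 rises and 1460 to 2434 falls on both scales. No filter (7883), a floor at 0 (6866), an offset of 5 reads (7259), the 6 libraries alone (8833), no variance trend (6907), a robust prior (7306) and voom weights (7339) stayed within 1.5 times of 7245 calls.

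Of 143 genes named, 133 kept their direction and call in every alternative run. Sox2 turned from -0.12 to 0.0939 after quantile normalization and was called only after centring (-0.34) or with median-ratio factors (-0.24). Nanog, Ncl, Sall4, Cdx2 and Rpl13a lost their calls after quantile normalization, Pax6 and Rpl13a without the filter or the variance trend, and Tdpoz3 and Rpl13a with values below 0 set to 0. Top2a gained a call in 6 alternatives, centring (-0.44) and median-ratio factors (-0.34) among them. Rn45s moved from 0.40 to 0.01 without treated replicate 2 and to 0.05 without untreated replicate 3. For these genes the cause was not tested.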

Other observations

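Other gene groups showed both directions, beside the 29.3% of all genes tested that rose and the 14.2% that fell. Of 23 tested genes of the interferon response and of antigen presentation, 11 rose and 3 fell. Tap1, the peptide transporter of the major histocompatibility complex class I pathway, went from 2.56, 2.51 and 2.49 to 5.78, 5.76 and 5.82, a difference of 3.27 ± 0.11 (limma adjusted p = 5.7e-56). Nlrc5, the transactivator of that pathway, rose by 3.77 from 0.77 ± 0.21 (mean ± SD, n = 3), and Usp18, a brake on interferon signals, by 3.54 from 5 to 7 reads. The RNA sensor gene Ddx58 (-0.77) and the antiviral gene Oas1a (-0.89) fell. The list median was 0.28 as deposited and 0.07 after centring.

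Among metabolic genes, 7 of 24 genes of cholesterol and fatty acid synthesis fell and 0 rose, with the desaturase gene Scd1 at -0.49. Of 30 autophagy and lysosome genes 5 rose, among them Wipi1 (1.77) and the cathepsin gene Ctsd (0.77), and 3 fell. In the glycolysis and hypoxia list 4 of 23 rose, led by the prolyl hydroxylase genes P4ha2 (1.33) and Egln3 (0.98), and 5 fell, led by the histone demethylase gene Kdm3a (-0.69), shares of 17.4% and 21.7% near the 29.3% and 14.2% of all genes tested. Eno1, a glycolytic gene that every cell uses, had 3 to 7 untreated reads and was not tested, so the counting left some genes nearly without reads. Of 20 histone gene transcripts seen in these poly(A) libraries 9 fell, such as Hist1h2ac (-0.97), and 1 rose. Of 22 germline genes 7 fell, led by Mael (-0.96) of the piRNA pathway, and 3 rose, led by the related helicase gene Tdrd9 (1.72). The 13 mitochondrially encoded transcripts were not found by their gene symbols among the 20900 genes, so they were not analysed here.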
